A study of Homo sapiens with 9 samples.

Results

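The nuclear-encoded subunits of the mitochondrial respiratory chain were measured by RNA-seq in MM1S, a human myeloma cell line, with and without depletion of PHF19. They were taken from the deposited gene table by symbol alone. These were the numbered NDUFA, NDUFB, NDUFC, NDUFS and NDUFV genes, SDHA to SDHD, and named sets of UQCR and COX genes. For ATP5 genes the rule was an open pattern, ATP5 followed by a letter and, in some, a digit. The rule selected 76 of 58387 genes, of which 36 belong to complex I, 4 to complex II, 8 to complex III, 11 to complex IV and 17 to complex V. NDUFA4, which is found in complex IV despite its symbol, was counted there. ATP5S (coupling factor B, DMAC2L in RefSeq) came in through the ATP5 pattern and was counted with complex V. The filter on low counts kept 75 of the 76. ATP5L2, a copy of an ATP synthase membrane subunit gene, did not pass it, with at most 3.48 estimated counts in any library.

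The cells had been infected with lentivirus and grown in regular medium. The control group, shEV (n = 3), stably carried an empty vector. The PHF19_KD group (n = 3) stably expressed an shRNA against PHF19, an accessory subunit of Polycomb repressive complex 2. The KD_Rescued group (n = 2) consisted of PHF19_KD cells given an shRNA-resistant PHF19; how that construct was introduced, and whether the cells of any group were a pool or a clone, is not given in the sources used here. One further library has a title that places it in PHF19_KD and an shRNA label that names shRNA-resistant PHF19, so it was kept out of every comparison.

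Respiratory complexes I to IV sit in the inner mitochondrial membrane and pass electrons from NADH and succinate through ubiquinone and cytochrome c to oxygen, and complexes I, III and IV pump protons as they do so. Complex V, the ATP synthase, uses the resulting proton gradient to make ATP. All subunits of complex II, and most of those of the other complexes, are encoded in the nucleus, translated in the cytosol and imported, whereas a small core set is encoded by mitochondrial DNA. Plasma cells and the myeloma cells derived from them secrete large amounts of protein, a process that depends on ATP.

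PHF19 itself stood at 123, 124 and 103 normalised CPM (a gene's count scaled to a fixed library total) in the shEV libraries, 26.0, 27.5 and 27.3 CPM in PHF19_KD and 220.0 and 218 CPM in KD_Rescued, and at 63.3 CPM in the library with disagreeing labels. The libraries held between 16974728 and 22739741 counts in shEV, 10609798 and 12024913 in PHF19_KD, and 23644123 and 23751353 in KD_Rescued. All 8 plasma cell markers examined were detected in every library, at 4101 to 4620 CPM in sum, but single markers differed: in PHF19_KD against shEV 3 of the 8 were higher (CD38 by 1.16 ± 0.04 on the log2 scale, SDC1 and XBP1) and 3 lower (TNFRSF17 -1.07 ± 0.05, IRF4 and MZB1). The 5 T and NK cell markers summed to 0.954 to 2.38 CPM, with 2 of them at 0 throughout. The 4 erythroid markers, of which 1 was at 0 throughout, summed (mean ± SD, n = 3, 3 and 2) to 52.1 ± 1.24 CPM for shEV, 12.9 ± 1.05 for PHF19_KD and 60.1 ± 1.38 for KD_Rescued, and the 5 monocyte markers to 20.4 to 23.2, 26.5 to 31.2 and 9.67 to 10.4 CPM. The 4 fibroblast markers summed to 0.362 to 0.767 CPM in shEV, 2.23 to 2.79 in PHF19_KD and 0.375 to 0.417 in KD_Rescued, and the 4 epithelial markers to 0.285 to 0.836, 0.759 to 1.29 and 0.292 to 0.423 CPM, with 1 marker of each list at 0 throughout. The 1 tested gene of each list, COL1A1 and KRT18, was higher in PHF19_KD than in shEV (2.15 ± 0.31 and 1.74 ± 0.46). Their part in the results was not tested. Within shEV, replicate 3 stood apart, with a chi-square per degree of freedom of 6.45 and 7.93 against its fellow libraries, compared with 1.38 to 2.23 for every other pair of replicates. It was the lowest shEV library for 49 of the 75 tested members, and 17 members were more than 1.2-fold lower in it than in the mean of the other controls. It is named below where a count rests on it. The sequencing lane of the rescued libraries differed from that of the rest, and its effect and that of the rescue cannot be told apart.

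Promoter sequences are shown for 5 members whose transcripts differ in how they moved, as context for the values that follow. The windows come from RefSeq on GRCh38.p14, run from 250 bases before to 50 bases after the annotated start, and are written 5′ to 3′ on the gene's strand. Capitals mark matches, on either strand, to 3 short motifs of factors known to act on respiratory genes: GCGCATGC for NRF1, CCGGAAG for ETS factors such as GABPA, and AAGATGGC for YY1. NDUFA6 (chr22:42090723-42091022, minus strand), an accessory subunit of complex I whose transcript was among those that fell most, held an NRF1 and a YY1 match. SDHB (chr1:17053983-17054282, minus strand), the iron-sulphur subunit of complex II, held all 3 motifs. COX5B (chr2:97645812-97646111, plus strand), a subunit of complex IV, held an NRF1 match and 2 ETS matches. ATP5G1 (ATP5MC1 in RefSeq, chr17:48892537-48892836, plus strand) held none. ATP5G2 (ATP5MC2 in RefSeq, first of 3 windows, chr12:53676034-53676333, minus strand) held an NRF1 match. ATP5G1 and ATP5G2 encode the same mature protein, subunit c of ATP synthase, and moved differently, as described below.
NDUFA6: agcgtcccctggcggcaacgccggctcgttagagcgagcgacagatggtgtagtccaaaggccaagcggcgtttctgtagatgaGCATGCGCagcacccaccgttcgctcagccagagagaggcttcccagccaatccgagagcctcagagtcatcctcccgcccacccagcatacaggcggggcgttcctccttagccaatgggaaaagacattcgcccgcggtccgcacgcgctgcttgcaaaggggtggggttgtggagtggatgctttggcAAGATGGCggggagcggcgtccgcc
SDHB: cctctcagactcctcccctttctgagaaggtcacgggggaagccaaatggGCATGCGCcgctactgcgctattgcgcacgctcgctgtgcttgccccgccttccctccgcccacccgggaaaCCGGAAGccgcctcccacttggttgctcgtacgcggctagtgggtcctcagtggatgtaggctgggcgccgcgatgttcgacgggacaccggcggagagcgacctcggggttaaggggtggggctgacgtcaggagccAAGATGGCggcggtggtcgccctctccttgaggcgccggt
COX5B: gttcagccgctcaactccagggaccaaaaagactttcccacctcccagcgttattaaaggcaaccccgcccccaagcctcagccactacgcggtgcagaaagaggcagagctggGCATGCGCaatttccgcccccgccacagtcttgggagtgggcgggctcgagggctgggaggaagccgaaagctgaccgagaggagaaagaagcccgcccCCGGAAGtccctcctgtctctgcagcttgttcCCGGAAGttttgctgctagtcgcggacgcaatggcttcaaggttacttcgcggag
ATP5G1: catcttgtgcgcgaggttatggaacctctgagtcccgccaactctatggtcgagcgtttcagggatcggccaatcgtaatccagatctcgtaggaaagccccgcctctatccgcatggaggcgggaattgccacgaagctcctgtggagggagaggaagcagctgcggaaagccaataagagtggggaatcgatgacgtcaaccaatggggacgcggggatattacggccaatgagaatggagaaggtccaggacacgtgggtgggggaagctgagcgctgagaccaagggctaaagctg
ATP5G2: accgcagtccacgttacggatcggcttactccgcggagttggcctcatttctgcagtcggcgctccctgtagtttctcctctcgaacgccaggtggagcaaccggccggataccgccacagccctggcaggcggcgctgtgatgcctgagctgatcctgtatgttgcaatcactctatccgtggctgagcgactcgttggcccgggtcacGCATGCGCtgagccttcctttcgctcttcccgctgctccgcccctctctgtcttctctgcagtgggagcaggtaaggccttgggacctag

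A window was given for 62 of the 76 members. Of these, 36 (58.1%) held at least 1 of the 3 motifs in any window. The share was 31.0% of the 10042 tested genes with a window under the same symbol, and 17.6% of all 27305 symbols with one. Members were also matched through older symbols, such as ATP5G1 for ATP5MC1, and the other tested genes were not. The NRF1 motif was found in 14 members (22.6%, against 6.53% of tested genes), the ETS motif in 20 (32.3%, against 21.9%) and the YY1 motif in 12 (19.4%, against 6.45%). By complex, a match to any motif was found in 16 of 31 members of complex I, 2 of 3 of complex II, 4 of 7 of complex III, 5 of 10 of complex IV and 9 of 11 of complex V. Members that fell in the knockdown held a motif in 27 of 45 cases and the other members in 9 of 17. The median log2 fold change between PHF19_KD and shEV was -0.47 with and -0.42 without the NRF1 motif, -0.50 and -0.39 for the ETS motif, and -0.57 and -0.40 for the YY1 motif. The 5 sequences shown above are examples and not a representative sample. Of other members that fell most, NDUFV2 and NDUFA12 held none of the 3 motifs and NDUFS6 held an NRF1 match. A match describes the letters in the window and shows no binding.

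The first comparison asked how the respiratory subunit transcripts differ when PHF19 is depleted. Most were moderately lower. Of the 75 tested members, 53 fell, 3 rose and 19 were not called (quasi-likelihood test of edgeR, p adjusted by Benjamini-Hochberg over all 16600 tested genes, threshold 0.05). Of all tested genes, 34.2% fell, 34.9% rose and 69.1% were called in either direction. The median log2 fold change of the members was -0.43, against 0.03 over all tested genes. Most changes were small. A fall of at least 1.5-fold was called for 26 members (19.8% of all tested genes), and one of more than 2-fold for 5 members (10.1% of all tested genes). The level of 53 members was lower in every PHF19_KD library than in any shEV library (35.3% of all tested genes), and that of 4 members was higher without overlap (36.6%). Without shEV replicate 3, 64 members fell and 3 rose, and of 16849 tested genes 5899 fell and 5855 rose. Upper-quartile scaling moved the median of all tested genes from 0.03 to 0.19 and the share of their calls that were lower from 49.5% to 39.4%, and there were 49 falls and 8 rises among the members. As RNA was taken from bulk cells, less RNA of a gene per cell and fewer cells that express it cannot be told apart.

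The summed level of the members (mean ± SD) was 12698 ± 390.4 CPM for shEV (n = 3), 9185 ± 286 for PHF19_KD (n = 3) and 11673 ± 125 for KD_Rescued (n = 2). The 3 groups did not overlap. Each complex also had a lower sum in every PHF19_KD library than in any shEV library. The sums for complex I were 3311 to 3700.2 CPM in shEV, 2524 to 2711 in PHF19_KD and 3492 to 3581 in KD_Rescued. For complex V they were 4907 to 5077, 3270.1 to 3448 and 4306 to 4393 CPM in the same order. In the rescued cells complex I thus lay within the shEV range, while complex V stayed between the other groups. The lower end of that range for complex I rests on shEV replicate 3. The other controls held 3683 and 3700.2 CPM of complex I, above both KD_Rescued libraries. The plot of fold changes by complex shows both comparisons with shEV for 74 of the 75 tested members, and the map of levels shows the same members library by library.

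**Figure D1:**
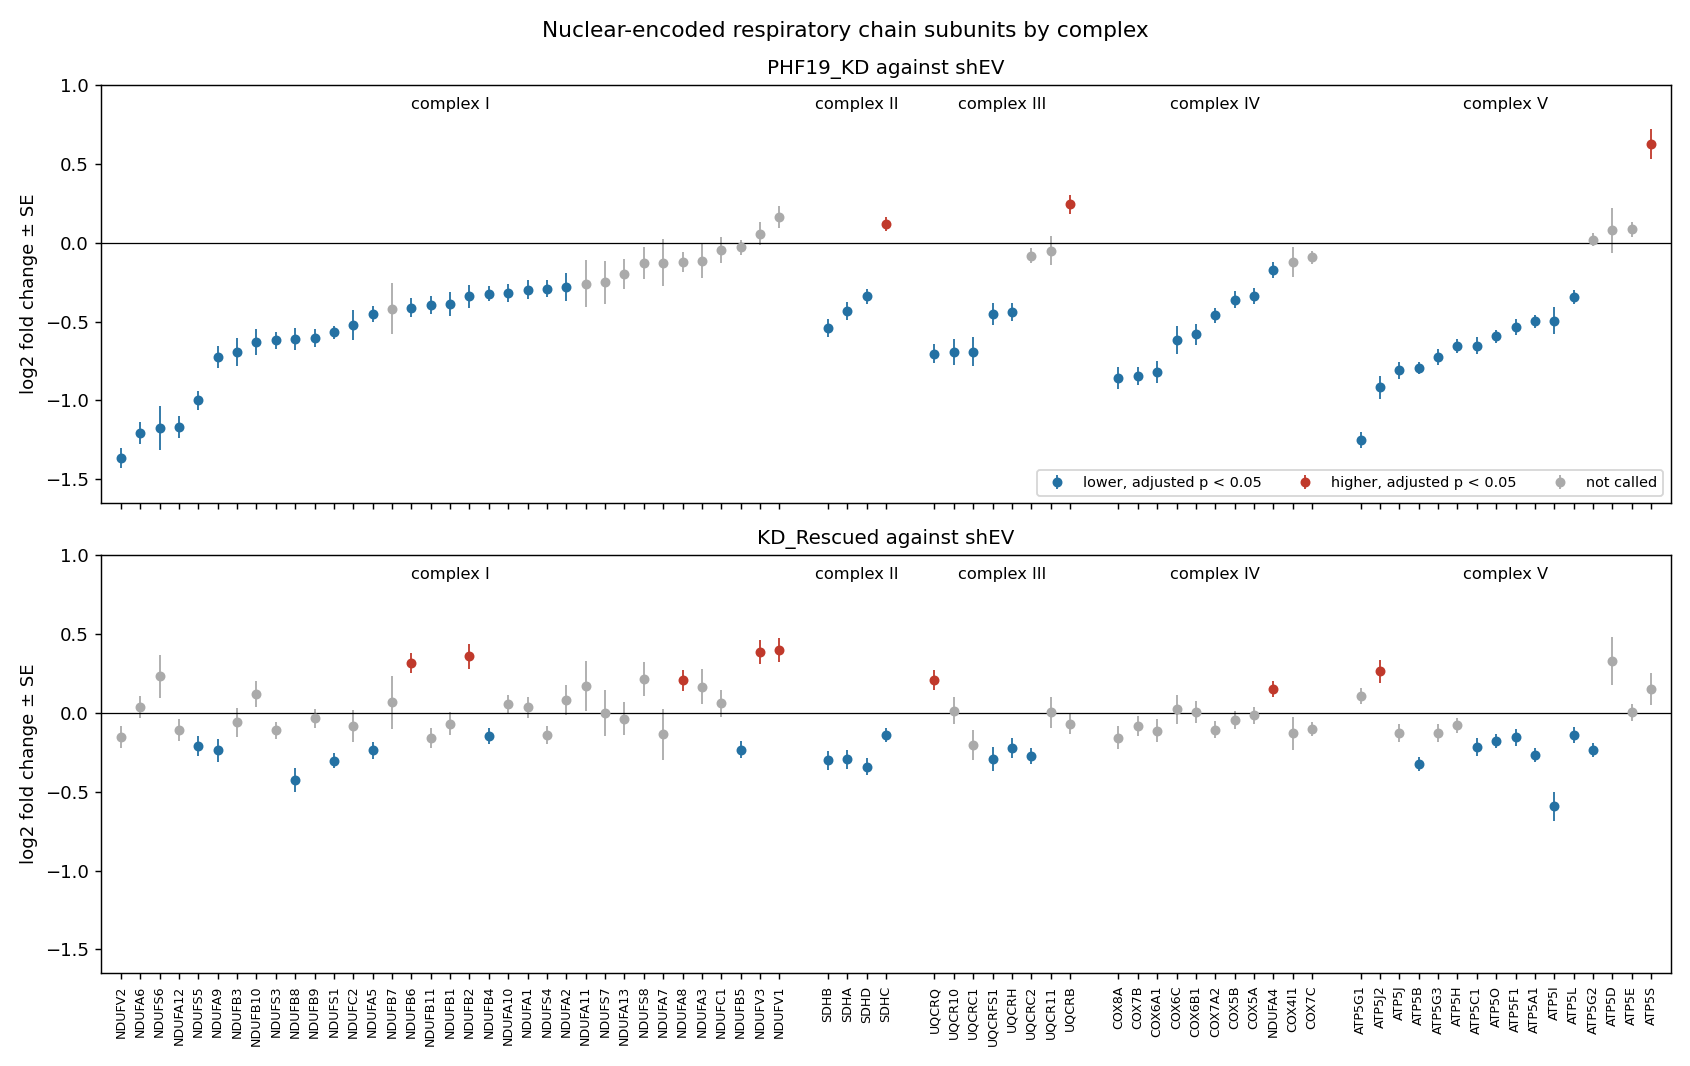
Log2 fold change ± SE of 74 of the 75 tested members (x axis, by complex, in the order of the upper panel) for PHF19_KD against shEV (upper panel) and KD_Rescued against shEV (lower panel); blue and red mark calls at adjusted p below 0.05. In the upper panel 52 of the members drawn lie below 0 as calls and 3 above; in the lower panel 22 and 8 do, most of them nearer to 0.

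**Figure D2:**
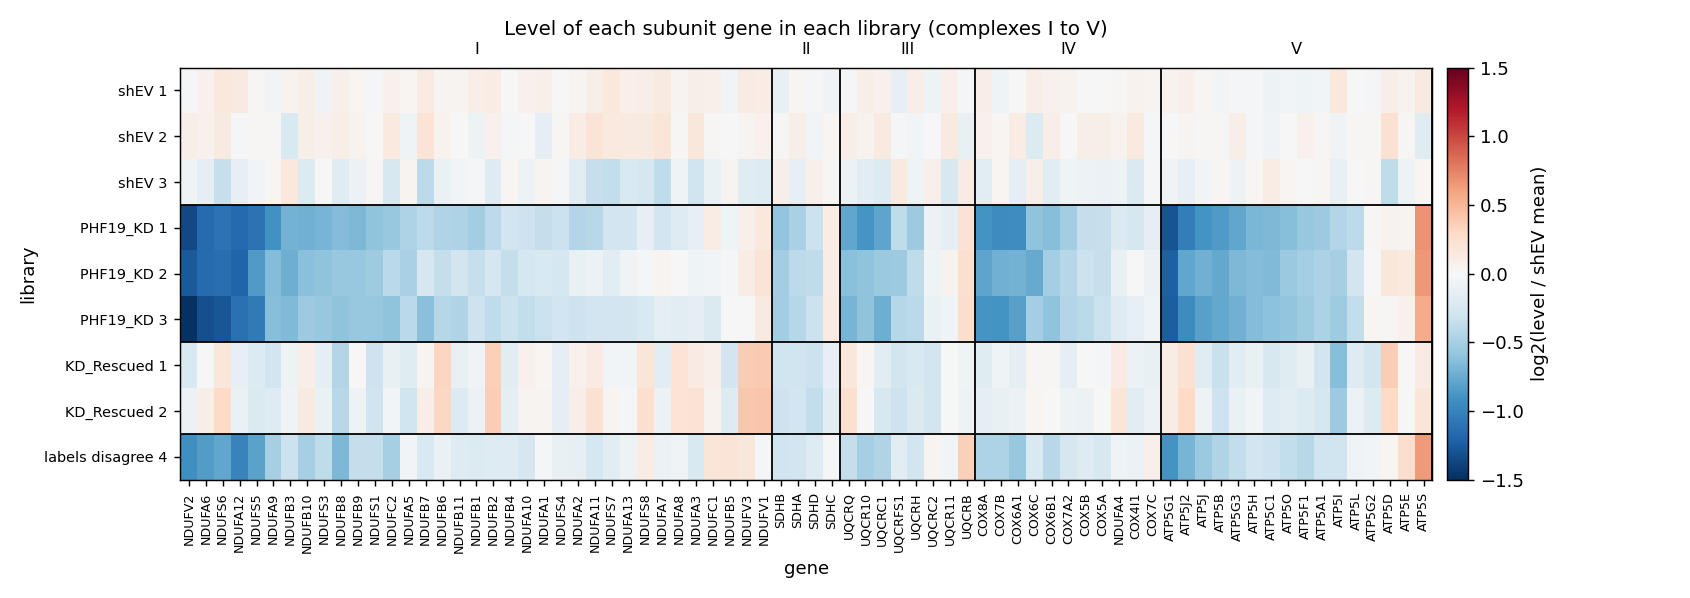
Log2 of the level of 74 of the 75 tested members over the shEV mean (colour) in each library (rows), by complex (columns I to V). The 3 PHF19_KD rows are blue for most members, the 2 KD_Rescued rows are pale, shEV replicate 3 is paler blue at several complex I members, and the library with disagreeing labels is blue at the members that are bluest in PHF19_KD.

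Complex I oxidises NADH and has a core of catalytic subunits surrounded by accessory ones. Of its 36 members, 24 fell, 0 rose and 12 were not called in PHF19_KD (median log2 fold change -0.36). NDUFV2, a core iron-sulphur subunit of the NADH-binding arm, stood at 394, 428 and 383 CPM in shEV, 157, 167 and 144 CPM in PHF19_KD and 344 and 379 CPM in KD_Rescued. The PHF19_KD libraries were the lowest, and both KD_Rescued libraries lay under the lowest control. The log2 fold change between PHF19_KD and shEV was -1.36 ± 0.07 (SE, edgeR adjusted p = 4.49e-09), which left 38.8% of the control level, and NDUFV2 rose by 1.21 ± 0.07 in KD_Rescued against PHF19_KD (adjusted p = 3.53e-08). Its pseudogene rows held 6.12% as many counts as NDUFV2 itself.

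NDUFA6, an accessory subunit of the matrix arm, was likewise lowest in PHF19_KD. Its level was 98.0, 98.0 and 85.1 CPM in shEV, 42.2, 42.2 and 37.5 CPM in PHF19_KD and 93.4 and 99.2 CPM in KD_Rescued. The PHF19_KD libraries did not overlap the others, and both KD_Rescued libraries lay within or just above the shEV range. The fall in PHF19_KD was -1.21 ± 0.07 (adjusted p = 2.09e-08) and the rise in KD_Rescued 1.24 ± 0.08 (adjusted p = 4.12e-08). NDUFS6 and NDUFA12, further accessory subunits of the matrix arm, fell by a similar size. NDUFS6 stood at 77.2, 76.3 and 54.3 CPM in shEV and 32.2, 31.7 and 28.5 CPM in PHF19_KD (-1.17 ± 0.14, adjusted p = 8.19e-05), with shEV replicate 3 the lowest control. NDUFA12 stood at 80.2, 72.2 and 67.4 CPM in shEV and 32.6, 31.8 and 33.6 CPM in PHF19_KD (-1.17 ± 0.07, adjusted p = 2.15e-08).

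The remaining 20 falls in complex I were smaller. At the other end, NDUFB5, an accessory subunit of the membrane arm, was nearest to 0 (-0.03 ± 0.05, adjusted p = 0.61). NDUFV1, the core subunit that binds NADH and flavin and is the direct partner of NDUFV2, was not lower. It stood at 250.1, 241 and 201 CPM in shEV, 257, 265 and 254 CPM in PHF19_KD and 302 and 308 CPM in KD_Rescued. Every PHF19_KD library lay above every shEV library and every KD_Rescued library above both. The difference between PHF19_KD and shEV was 0.16 ± 0.07 (adjusted p = 0.0562), just short of a call. It was called without shEV replicate 1 (0.23) or without replicate 2 (0.20). Both of these fits keep shEV replicate 3, which at 201 CPM was the lowest control. The other controls, at 250.1 and 241 CPM, lay nearer to the PHF19_KD libraries, so the size of the difference rests largely on replicate 3. NDUFV1 is outside the rule for named genes in this comparison and was chosen after its values were seen. Among the 7 core subunits encoded in the nucleus, a grouping also made after the values were seen, 4 fell, 0 rose and 3 were not called.

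Complex II oxidises succinate and is also an enzyme of the citrate cycle. Its 4 subunits did not move together. SDHA, the flavoprotein that binds succinate, stood at 585, 608 and 524 CPM in shEV, 408, 436 and 427 CPM in PHF19_KD and 464 and 469 CPM in KD_Rescued. SDHB, the iron-sulphur subunit, stood at 98.7, 108 and 113 CPM in shEV, 70.4, 74.5 and 74.1 CPM in PHF19_KD and 86.8 and 85.9 CPM in KD_Rescued. SDHD, a membrane anchor, stood at 124, 123 and 133 CPM in shEV, 101, 97.3 and 101 CPM in PHF19_KD and 101 and 98.1 CPM in KD_Rescued. All 3 were lower in every PHF19_KD library than in any shEV library, by -0.43 ± 0.05 (adjusted p = 1.65e-05), -0.54 ± 0.06 (adjusted p = 3.18e-06) and -0.34 ± 0.05 (adjusted p = 4.59e-05) respectively. SDHC, the anchor that forms the ubiquinone site together with SDHD, stood at 139, 146 and 145 CPM in shEV and 155, 156 and 157 CPM in PHF19_KD. Its PHF19_KD libraries all lay above the controls, but the difference was small (0.12 ± 0.04, adjusted p = 0.0236). The call for SDHC was lost when shEV replicate 1, PHF19_KD replicate 2 or 3, or either KD_Rescued library was left out (0.10 to 0.12), and with DESeq2 (0.11).

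Complex III passes electrons from ubiquinol to cytochrome c. Of its 8 members, 5 fell, 1 rose and 2 were not called in PHF19_KD (median -0.44). UQCRQ, a small accessory subunit, stood at 111, 121 and 106 CPM in shEV, 65.7, 72.9 and 69.5 CPM in PHF19_KD and 127 and 133 CPM in KD_Rescued (-0.70 ± 0.06 for PHF19_KD against shEV, adjusted p = 5.95e-07). UQCR10, another small subunit, and UQCRC1, a core protein of the matrix side, changed by -0.69 ± 0.08 (adjusted p = 1.77e-05) and -0.69 ± 0.09 (adjusted p = 6.26e-05). UQCRFS1, the Rieske iron-sulphur protein, changed by -0.45 ± 0.07 (adjusted p = 0.00011), but its pseudogene rows held 43.2% as many counts as UQCRFS1 itself. In all of these the PHF19_KD and shEV libraries did not overlap.

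UQCRB, a small subunit near the ubiquinone site, went the other way. It stood at 104, 97.0 and 114 CPM in shEV, 123, 124 and 126 CPM in PHF19_KD and 101 and 99.4 CPM in KD_Rescued. Among the fitted libraries those of PHF19_KD were the highest, and the KD_Rescued libraries lay within the shEV range. UQCRB rose by 0.24 ± 0.06 in PHF19_KD (adjusted p = 0.00264) and changed by -0.31 ± 0.06 in KD_Rescued against PHF19_KD (adjusted p = 0.00106). UQCR11 was nearest to 0 in this complex (-0.05 ± 0.09, adjusted p = 0.643), and was called lower without shEV replicate 3 (-0.15).

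Complex IV, cytochrome c oxidase, reduces oxygen, and its catalytic core is encoded by mitochondrial DNA. Of its 11 nuclear members, 9 fell, 0 rose and 2 were not called in PHF19_KD (median -0.46). The small structural subunit COX8A stood at 195, 189.6 and 161 CPM in shEV, 97.5, 105 and 98.3 CPM in PHF19_KD and 161 and 165 CPM in KD_Rescued. COX7B stood at 199, 212 and 212 CPM in shEV, 108, 126 and 112 CPM in PHF19_KD and 199 and 193 CPM in KD_Rescued. The PHF19_KD libraries of both genes lay below all others, with log2 fold changes of -0.86 ± 0.07 (adjusted p = 3.67e-07) and -0.85 ± 0.06 (adjusted p = 6.86e-08). COX6A1 (-0.82 ± 0.07, adjusted p = 6.37e-07) and COX6C (-0.62 ± 0.09, adjusted p = 0.000104) fell as well, and the pseudogene rows of COX6A1 held 10.9% as many counts as the gene. COX7C, nearest to 0, stood at 342, 329.5 and 328 CPM in shEV and 303, 314 and 319 CPM in PHF19_KD (-0.09 ± 0.04, adjusted p = 0.0532), lower in every PHF19_KD library but short of a call, and was called without shEV replicate 3 (-0.11).

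Complex V has a catalytic F1 head, a membrane ring of subunit c and stalks that join them. Of its 16 tested members, 12 fell, 1 rose and 3 were not called in PHF19_KD (median -0.56). ATP5B, the catalytic beta subunit, stood at 1525, 1596 and 1594 CPM in shEV, 873, 923 and 924 CPM in PHF19_KD and 1249.7 and 1263 CPM in KD_Rescued. The 3 groups were fully separated, with KD_Rescued between the others. ATP5B changed by -0.79 ± 0.04 in PHF19_KD (adjusted p = 4.58e-09), to 57.7% of the control level. ATP5J2, a membrane subunit, and ATP5J, of the peripheral stalk, changed by -0.92 ± 0.07 (adjusted p = 2.54e-07) and -0.81 ± 0.05 (adjusted p = 6.35e-08).

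ATP5S, coupling factor B, was the member that rose most in PHF19_KD. It stood at 12.6, 10.2 and 11.8 CPM in shEV, 18.4, 18.1 and 16.9 CPM in PHF19_KD and 12.5 and 13.1 CPM in KD_Rescued, so that of the fitted libraries those of PHF19_KD lay above the rest. The rise was 0.63 ± 0.10 (adjusted p = 8.85e-05), and the fall in KD_Rescued against PHF19_KD -0.48 ± 0.10 (adjusted p = 0.00149). Its counts were the fewest of the tested members, 195 to 313 in the fitted libraries.

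The 3 genes of subunit c differed from each other although they encode one mature protein behind different import signals. ATP5G1 stood at 125, 120.3 and 116 CPM in shEV, 49.2, 51.5 and 50.9 CPM in PHF19_KD and 129.5 and 130.1 CPM in KD_Rescued. ATP5G2 stood at 255, 265 and 264 CPM in shEV, 265, 263 and 267 CPM in PHF19_KD and 216 and 227 CPM in KD_Rescued. ATP5G3 stood at 401, 435 and 388 CPM in shEV, 237, 255 and 246 CPM in PHF19_KD and 365 and 381 CPM in KD_Rescued. ATP5G1 and ATP5G3 were lower in every PHF19_KD library than in any other fitted library, whereas ATP5G2 overlapped the controls in PHF19_KD and was lowest in KD_Rescued.

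In PHF19_KD against shEV the log2 fold change was -1.25 ± 0.05 for ATP5G1 (adjusted p = 5.03e-10), -0.73 ± 0.05 for ATP5G3 (adjusted p = 8.63e-08) and 0.02 ± 0.04 for ATP5G2 (adjusted p = 0.7). In KD_Rescued against PHF19_KD it was 1.36 ± 0.05 for ATP5G1 (adjusted p = 5.93e-10), 0.60 ± 0.06 for ATP5G3 (adjusted p = 1.5e-06) and -0.25 ± 0.04 for ATP5G2 (adjusted p = 0.000327). ATP5G2 and ATP5G3 had counts that were not whole in all 9 libraries and ATP5G1 in 6, so reads of these related genes had partly been divided, and their separation is uncertain to that extent. The ratio of ATP5G2 to ATP5G1 counts, not corrected for transcript length and so compared only between libraries, was 2.04 to 2.29 in shEV, 5.10 to 5.38 in PHF19_KD and 1.67 to 1.75 in KD_Rescued. The summed level of the 3 genes (mean ± SD) was 789 ± 26.8 CPM for shEV, 561 ± 9.43 for PHF19_KD (n = 3 each) and 725 ± 19.5 for KD_Rescued (n = 2).

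**Figure D3:**
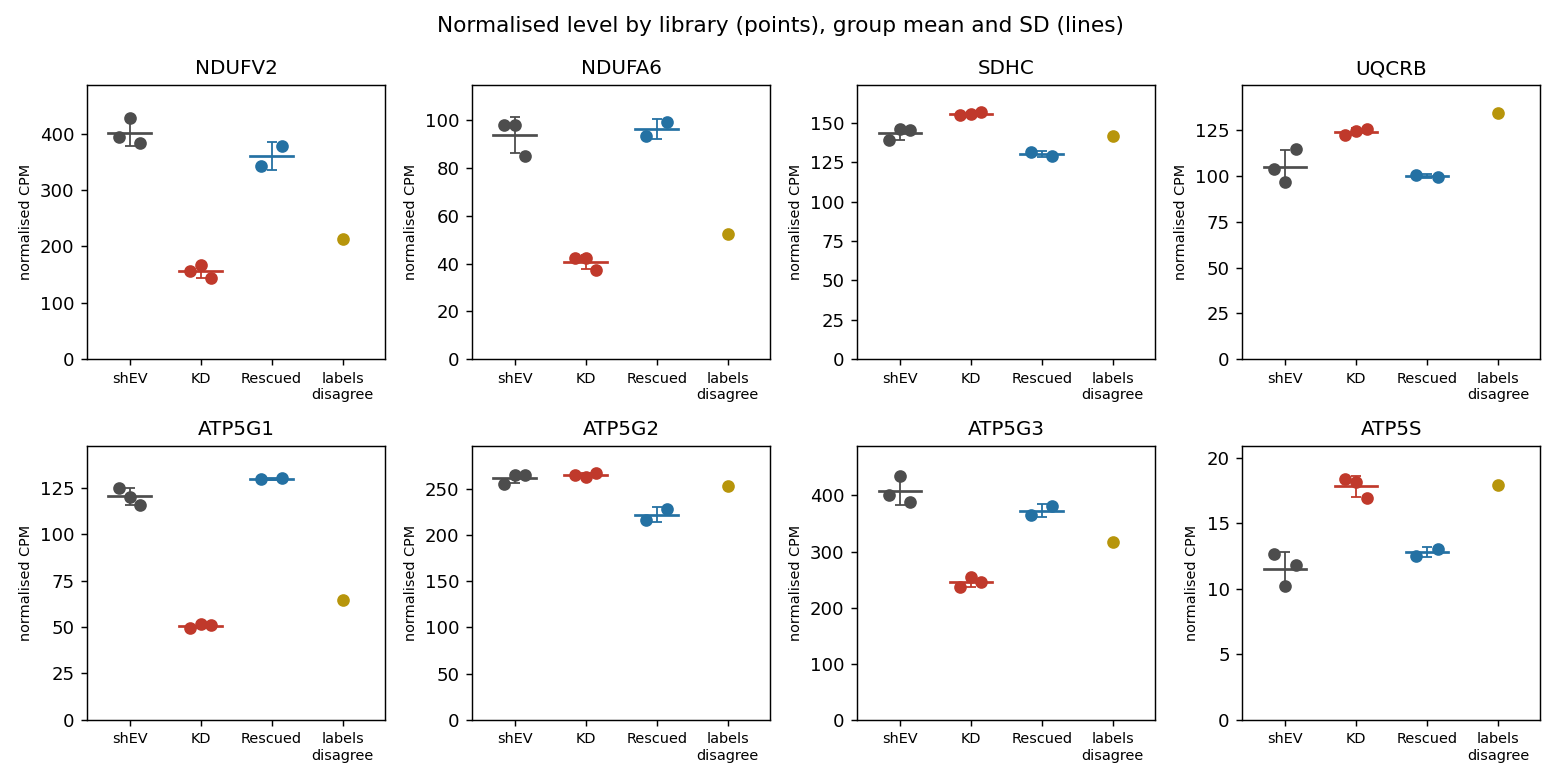
Normalised level in CPM (y axis, from 0) of 8 members in each library (points), with group mean and SD (lines), for shEV, PHF19_KD (KD), KD_Rescued (Rescued) and the library with disagreeing labels. NDUFV2, NDUFA6, ATP5G1 and ATP5G3 are lowest in PHF19_KD, SDHC, UQCRB and ATP5S are highest there among the fitted libraries, and ATP5G2 overlaps between shEV and PHF19_KD.

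The second comparison set the rescued cells against the knockdown. Of the 75 tested members, 53 rose, 6 fell and 16 were not called in KD_Rescued against PHF19_KD (same test), where 33.9% of all tested genes rose, 29.5% fell and 63.4% were called in either direction. The median log2 fold change was 0.33, against 0.03 over all tested genes. A rise of at least 1.5-fold was called for 20 members (19.6% of all tested genes) and one of more than 2-fold for 6 (10.5%). The level of 60 members was higher in both KD_Rescued libraries than in any PHF19_KD library (40.8% of all tested genes), and that of 9 was lower without overlap (36.4%). This comparison and the previous one share the PHF19_KD libraries, so a low value there enters both, and the values are given side by side only. With upper-quartile scaling, 37 members rose and 11 fell, and the calls over all genes went from 46.6% to 57.9% lower. Counting the library with disagreeing labels as KD_Rescued left 33 rises. Over all genes this left 3338 rises among 15886 tested, against 5622 among 16600 with that library kept out.

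In complex I, 28 of 36 members rose and 1 fell. NDUFS6 rose most, by 1.41 ± 0.15 (adjusted p = 4.57e-05), from 32.2, 31.7 and 28.5 CPM in PHF19_KD to 77.9 and 85.4 CPM in KD_Rescued. NDUFA12 rose by 1.06 ± 0.08 (adjusted p = 1.39e-07), and NDUFV2 and NDUFA6 by the values given above. NDUFB5 was the 1 member of the complex that fell, from 82.1, 84.1 and 85.7 to 70.5 and 75.2 CPM (-0.21 ± 0.05, adjusted p = 0.00588). That call was lost without KD_Rescued replicate 1 (-0.15). NDUFA7, an accessory subunit of the matrix arm, was nearest to 0 (-0.01 ± 0.17, adjusted p = 0.967).

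In complex II, SDHB rose by 0.24 ± 0.06 (adjusted p = 0.00473) and SDHC fell (-0.26 ± 0.05, adjusted p = 0.000374), while SDHA (0.14 ± 0.06, adjusted p = 0.0608) and SDHD (-0.00 ± 0.05, adjusted p = 0.97) were not called. SDHA was called without shEV replicate 2 (0.13) or 3 (0.14). In complex III, 4 members rose and 2 fell. UQCRQ rose by 0.91 ± 0.07 (adjusted p = 1.57e-07), UQCR10 by 0.71 ± 0.09 and UQCRC1 by 0.49 ± 0.10. UQCRC2, the other core protein of the matrix side, joined UQCRB in falling, from 238, 241 and 236 CPM to 209 and 208 CPM (-0.19 ± 0.05, adjusted p = 0.00477). It had not been called in PHF19_KD against shEV, but was called lower there without shEV replicate 1 (-0.12).

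In complex IV, 9 of 11 members rose and 0 fell, with COX7B (0.76 ± 0.06), COX6A1 (0.70 ± 0.08), COX8A (0.70 ± 0.07) and COX6C (0.64 ± 0.10) foremost. COX4I1, a subunit with regulatory roles, was nearest to 0 (-0.01 ± 0.11, adjusted p = 0.954). In complex V, 11 of 16 tested members rose and 2 fell, the falls being those of ATP5S and ATP5G2 given above. ATP5J2 rose by 1.18 ± 0.08 (adjusted p = 7.08e-08), from 56.1, 66.9 and 59.7 CPM to 135 and 141 CPM, and ATP5J by 0.68 ± 0.06. ATP5E, a small subunit of the central stalk, was nearest to 0 (-0.08 ± 0.05, adjusted p = 0.203).

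The third comparison asked whether the rescued cells differed from the control. Differences here were fewer and smaller. Of the 75 tested members, 23 were lower, 8 were higher and 44 were not called in KD_Rescued against shEV (same test), where 19.1% of all tested genes were lower, 20.7% higher and 39.8% called in either direction. The median log2 fold change was -0.08, against 0.02 over all tested genes. Of the members, only ATP5I, a membrane subunit of complex V, was called lower at 1.5-fold or more (4.2% of all tested genes) and 0 were called higher (10.4%). At more than 2-fold, 0 were lower (1.87%) and 0 higher (5.46%). Without overlap between the libraries, 32 members were lower (29.2%) and 13 higher (32.5%). These counts depend on single libraries. Without shEV replicate 3, 37 members were lower and 9 higher, and of 16849 tested genes 3825 were lower and 3714 higher. Without KD_Rescued replicate 1, 12 were lower and 5 higher, and without KD_Rescued replicate 2, 12 and 4. With DESeq2, 30 were lower and 5 higher, and the share of calls over all genes that were lower went from 47.9% to 57.7%.

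All 4 members of complex II were lower in KD_Rescued than in shEV, with no overlap between the libraries. The log2 fold changes were -0.29 ± 0.06 for SDHA (adjusted p = 0.00244), -0.30 ± 0.06 for SDHB (adjusted p = 0.00206), -0.14 ± 0.05 for SDHC (adjusted p = 0.0279) and -0.34 ± 0.05 for SDHD (adjusted p = 0.000331). The call for SDHC was lost without shEV replicate 2 (-0.13), KD_Rescued replicate 1 (-0.16) or KD_Rescued replicate 2 (-0.13), and those for the other members of the complex were not. The shEV and KD_Rescued sums of complex II were 914 to 985 and 782 to 784 CPM, and that of PHF19_KD was 735 to 764 CPM.

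In complex I, 8 members were lower and 5 higher. NDUFB8, an accessory subunit of the membrane arm, stood at 88.3, 89.6 and 74.3 CPM in shEV and 62.2 and 63.1 CPM in KD_Rescued (-0.43 ± 0.08, adjusted p = 0.000922). Every KD_Rescued library lay below every control. The 5 higher members were NDUFV1 (0.40 ± 0.08, adjusted p = 0.00177), NDUFV3 (0.39 ± 0.08, adjusted p = 0.00207), NDUFB2 (0.36 ± 0.08, adjusted p = 0.00407), NDUFB6 (0.32 ± 0.06, adjusted p = 0.00187) and NDUFA8 (0.21 ± 0.07, adjusted p = 0.0258). NDUFV3, like NDUFV1 a subunit of the NADH-binding end, stood at 56.7, 53.7 and 45.9 CPM in shEV, 54.9, 56.1 and 52.0 CPM in PHF19_KD and 67.7 and 68.9 CPM in KD_Rescued. The call for NDUFA8 was lost without either KD_Rescued library (0.20 in both cases). NDUFS7, a core iron-sulphur subunit, was nearest to 0 (-0.00 ± 0.15, adjusted p = 0.997), but without shEV replicate 3 it was called lower (-0.15).

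In complex III, UQCRFS1 (-0.29 ± 0.08), UQCRC2 (-0.28 ± 0.05) and UQCRH, the hinge protein that contacts cytochrome c (-0.22 ± 0.06), were lower and UQCRQ was higher (0.21 ± 0.06), with adjusted p = 0.00931, 0.00103, 0.0141 and 0.0219. Without KD_Rescued replicate 1 or 2, the calls for UQCRFS1 (-0.31 and -0.28), UQCRH (-0.22 and -0.24) and UQCRQ (0.23 and 0.17) were lost, and that for UQCRQ also without shEV replicate 1 (0.19). UQCR11 was nearest to 0 (0.00 ± 0.10, adjusted p = 0.989). In complex IV, NDUFA4 alone was called, higher by 0.15 ± 0.05 (adjusted p = 0.042). That call was lost without shEV replicate 1 (0.16), PHF19_KD replicate 1 or 3 (0.15 each), or KD_Rescued replicate 1 (0.17) or 2 (0.12). COX6B1 was nearest to 0 (0.01 ± 0.07, adjusted p = 0.959).

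In complex V, 8 members were lower and 1 higher. ATP5I stood at 25.9 ± 2.61 CPM in shEV (SD, n = 3) and at 19.2, 18.3 and 17.9 CPM in PHF19_KD and 16.7 and 17.8 CPM in KD_Rescued, so that it was lower in both other groups than in shEV, without overlap. The difference between KD_Rescued and shEV was -0.59 ± 0.09 (adjusted p = 0.000336). ATP5B (-0.32 ± 0.04, adjusted p = 0.000168) and ATP5A1, the alpha subunit of the F1 head (-0.27 ± 0.04, adjusted p = 0.0005), were lower too. ATP5J2 was higher (0.26 ± 0.07, adjusted p = 0.0138), a call lost without KD_Rescued replicate 2 (0.22), and ATP5E was nearest to 0 (0.00 ± 0.05, adjusted p = 0.965). For subunit c, ATP5G2 was lower (-0.24 ± 0.04, adjusted p = 0.00136), and ATP5G1 (0.11 ± 0.05, adjusted p = 0.101) and ATP5G3 (-0.13 ± 0.06, adjusted p = 0.0868) were not called. ATP5G3 was called lower without shEV replicate 3 (-0.17).

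The 13 respiratory subunits encoded by mitochondrial DNA moved opposite to the nuclear ones. The nuclear members took 1.23 to 1.26% of all counts in shEV, 0.902 to 0.953% in PHF19_KD and 1.18 to 1.19% in KD_Rescued. The mitochondrially encoded subunits took 2.61 to 3.06%, 7.67 to 8.58% and 4.48 to 4.65% in the same order. In neither set did the groups overlap. All 13 mitochondrially encoded genes rose in PHF19_KD against shEV (median log2 fold change 1.48), 12 of 13 fell in KD_Rescued against PHF19_KD (median -0.84) and all 13 were higher in KD_Rescued than in shEV (median 0.75). The difference between these sets of genes was not tested by itself.

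A larger mitochondrial share leaves a smaller share for every other gene, so the nuclear members were also measured without it. Among counts outside the mitochondrial rows they took 1.27 to 1.30% in shEV, 1.00 to 1.05% in PHF19_KD and 1.24 to 1.25% in KD_Rescued. With all mitochondrial rows removed before scaling and testing, 57 members fell and 2 rose in PHF19_KD against shEV. Of all 16655 genes then tested, 5901 fell and 5571 rose. The share of their calls that were lower went from 49.5% to 51.4%. The part of RNA quality in the mitochondrial share was not tested.

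**Figure D4:**
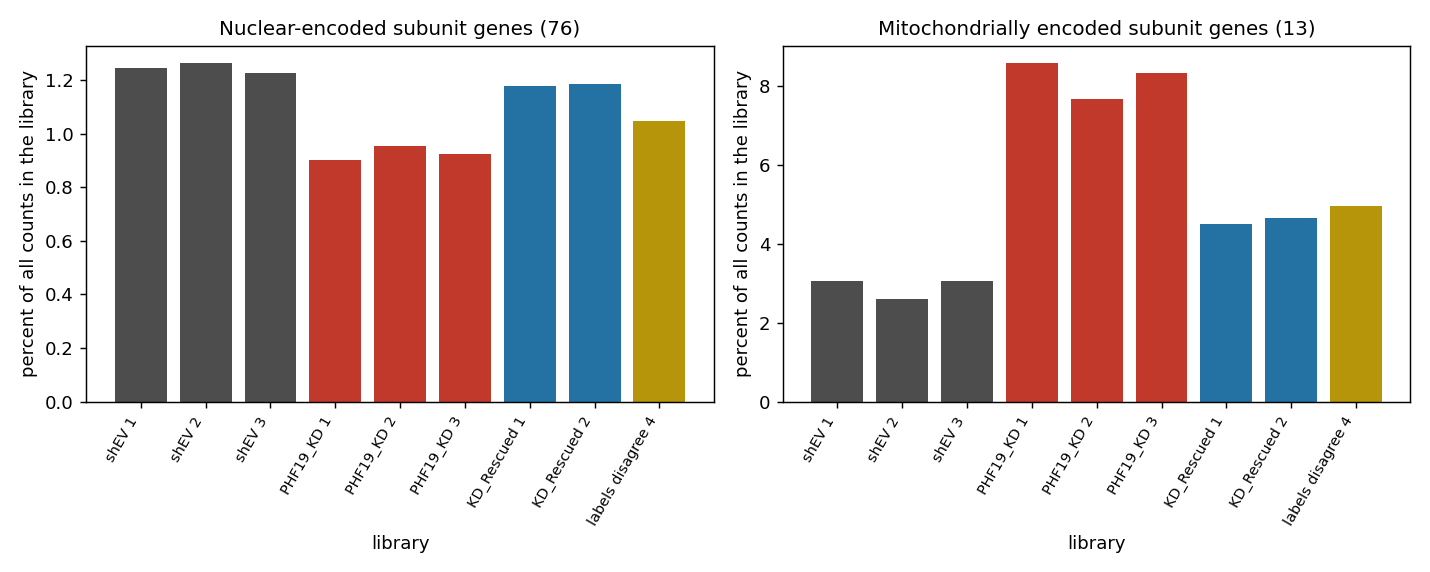
Percent of all counts in each library (bars, from 0) taken by the 76 nuclear-encoded members (left) and by the 13 mitochondrially encoded subunit genes (right). The nuclear share is lowest in the 3 PHF19_KD libraries, where the mitochondrial share is highest; the 2 panels have different scales.

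Most lists of other genes of the pathway also held more falls than rises in PHF19_KD against shEV, where 34.2% of all tested genes fell and 34.9% rose. Of 9 tested genes of respiratory subunits or related proteins that the symbol rule does not take, 8 fell and 1 rose. They include ATPIF1, and UQCRHL, which was counted among the pseudogene rows of UQCRH. The falls included CYC1, cytochrome c1 of complex III (-1.08 ± 0.07, adjusted p = 9.53e-08), and NDUFAB1, the acyl carrier protein of complex I (-0.82 ± 0.05, adjusted p = 2.51e-08). The rise was that of COX6B2, at a mean of only 0.0799 CPM in shEV and 0.607 in PHF19_KD. NDUFA4L2, named here for its low level, fell from a mean of 1.54 to 0.316 CPM. Assembly factors were lower in 8 of 15 cases and higher in 1 for complex I, in 1 and 0 of 2 for complex II, in 4 and 0 of 6 for complex III, in 17 and 4 of 23 for complex IV and in 2 and 1 of 3 for complex V. FOXRED1, needed to assemble complex I, fell from 86.8 ± 3.34 to 39.7 ± 2.60 CPM (SD, n = 3 each; -1.13 ± 0.06), and TMEM70, needed for complex V, from 59.0 ± 1.47 to 27.4 ± 1.96 CPM (-1.11 ± 0.06). Against that direction, SURF1, needed for complex IV, rose from 38.7 ± 3.63 to 59.0 ± 2.01 CPM (0.61 ± 0.07, adjusted p = 6.91e-06), and COA5 rose by 0.54 ± 0.07.

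The mobile electron carriers and their makers were mixed, with 5 of 13 lower (38.5%) and 3 higher (23.1%), near the 34.2% of all tested genes that were lower and under the 34.9% that were higher. CYCS, cytochrome c, fell from 403 ± 27.4 to 163 ± 4.85 CPM (-1.30 ± 0.06, adjusted p = 1.41e-09), and PDSS1, which makes the side chain of ubiquinone, from 17.2 ± 0.478 to 4.47 ± 0.575 CPM (-1.94 ± 0.10, adjusted p = 7.29e-09), while COQ10A, a ubiquinone-binding protein, rose by 0.92 ± 0.09. Of 14 regulators of mitochondrial biogenesis, 10 fell and 1 rose. TFAM packages mitochondrial DNA and takes part in starting its transcription. It stood at 122 ± 4.89 CPM for shEV, 56.3 ± 1.65 for PHF19_KD (mean ± SD, n = 3 each) and 72.6 ± 0.472 for KD_Rescued (n = 2). Its change in PHF19_KD against shEV was -1.11 ± 0.05 (adjusted p = 1.57e-09). PPRC1, a coactivator of respiratory genes, changed by -0.67 ± 0.05 (adjusted p = 1.8e-07), and the nuclear receptor ESRRA rose by 0.42 ± 0.06 (adjusted p = 7.12e-05). NRF1 and GABPA, whose motifs are marked in the promoters above and which are named for that reason after their values were seen, changed by -0.76 ± 0.07 and -0.84 ± 0.06 (adjusted p = 1.37e-06 and 2.13e-07). YY1, whose motif is also marked there and which is named for the same reason, changed less, by -0.16 ± 0.05 (adjusted p = 0.00992). Of 16 enzymes of the citrate cycle and pyruvate dehydrogenase, 14 fell and 1 rose. DLAT, a core subunit of pyruvate dehydrogenase, changed by -1.15 ± 0.05 and FH, fumarase, by -0.94 ± 0.04, whereas OGDH, of the 2-oxoglutarate dehydrogenase complex, rose by 0.29 ± 0.07 (adjusted p = 0.00223).

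In KD_Rescued against PHF19_KD, 6 of the 9 respiratory genes outside the symbol rule rose and 0 fell, where 33.9% of all tested genes rose and 29.5% fell. The same counts were 8 rises and 1 fall of 14 for the regulators, 14 and 1 of 16 for the citrate cycle enzymes, and 6 and 4 of 13 (46.2% and 30.8%) for the electron carriers. FH rose from 157 ± 4.04 to 304 ± 7.58 CPM (mean ± SD, n = 3 and 2; 0.95 ± 0.05, adjusted p = 4.36e-09), and NRF1 by 0.86 ± 0.08 (adjusted p = 9.9e-07). TFAM stayed below the control in the rescued cells (-0.75 ± 0.05 against shEV, adjusted p = 1.33e-06).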

How the data were processed

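RNA-seq was measured in 9 libraries of MM1S cells, 8 of them in 3 groups. The deposited values are estimated counts per gene made by the authors, with decimals where reads had been divided between genes, and are not normalised. The submitters' processing notes name CASAVA, RSEM and hg19 without roles or versions, and the program behind the counts is not settled by the sources used here. Counts were rounded and tested with edgeR 4.0.16 (quasi-likelihood test, TMM scaling, limma 3.58.1, R 4.3.3). Low genes were removed with filterByExpr by group, which left 16600. The 8 libraries entered 1 fit of group means, and p-values were adjusted over all 16600 genes, with a call at an adjusted p below 0.05. CPM are counts over the column total of tested genes times the TMM factor. The SE is the log2 fold change over the square root of F. The method was tested on simulated data.

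Genes were named by rule: in each complex and comparison up to 4 called members with the largest change, every member called against the majority, and the member nearest to 0, besides complex II and subunit c in full, and from each other list at most 2 called rises and 2 called falls of lowest adjusted p. Members, lists and tests were chosen with earlier results of these data known. The labels do not say that replicates came from separate cultures, so p-values measure no more than how these libraries vary, which can be technical. Of the 76 members, 63 had counts that were not whole (tolerance 0.01) in at least 1 library, and 38 have pseudogene rows in the table. Alternatives were upper-quartile scaling, DESeq2 1.42.0, limma-voom, other filters on low counts (none, or 5 CPM in 2 libraries), mitochondrial rows removed, pseudogene rows summed, a fold of at least 1.5, only the groups compared, a replicate block, each library left out, and both placements of the library with disagreeing labels. Promoter windows and their build, GRCh38.p14, are from RefSeq, while the counts were made on another build, so no coordinates were taken from the count table. The values of 1 tested member are not reported here by name or drawn, and it is kept in all counts, sums and medians.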

Additional observations from a re-analysis of the deposited data

Results flagged for a closer look

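The library with disagreeing labels, which entered no comparison, held 49348 CPM of the 13 mitochondrially encoded subunits in sum. That is above the shEV libraries, which held 26861 to 31490 CPM, and below the PHF19_KD libraries, which held 76266 to 84648 CPM. The KD_Rescued libraries held 44096 to 46125 CPM.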

How the results depend on the processing

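The PHF19_KD libraries were the shallowest of the 3 groups, and with 2 KD_Rescued libraries the comparisons with that group rest on few samples. Of the calls, 49 of 56 in PHF19_KD against shEV, 33 of 59 in KD_Rescued against PHF19_KD and 9 of 31 in KD_Rescued against shEV were made under every alternative run other than the 1.5-fold rule, whose counts are given below. Of the members not called, 16 of 19, 12 of 16 and 18 of 44 in the same order were called under some alternative.

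The median of all members in PHF19_KD against shEV was -0.28 with upper-quartile scaling, -0.52 with no filter on low counts, -0.34 with the filter at 5 CPM and -0.35 with the library with disagreeing labels counted as PHF19_KD. In KD_Rescued against PHF19_KD it was 0.18 with upper-quartile scaling, 0.26 at 5 CPM, and 0.24 and 0.22 with that library counted as PHF19_KD and as KD_Rescued. In KD_Rescued against shEV it was -0.16 with that library counted as KD_Rescued. Counted as PHF19_KD, it left 17 calls in KD_Rescued against shEV, 14 lower and 3 higher. Counted as KD_Rescued, it left 35 calls in KD_Rescued against PHF19_KD, 33 of them higher, and 13 in KD_Rescued against shEV, 13 lower and 0 higher. Calls over all genes became fewer as well. In KD_Rescued against shEV, 3163 genes were lower and 3436 higher with that library kept out. Counted as PHF19_KD it left 2185 and 1862, and counted as KD_Rescued 1202 and 1262. With DESeq2, 5 members were higher in KD_Rescued than in shEV. At 1.5-fold or more, 27 members were called in PHF19_KD against shEV (26 lower), 20 in KD_Rescued against PHF19_KD (20 higher) and 1 in KD_Rescued against shEV (1 lower, 0 higher).

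Some values near 0 changed sign. Upper-quartile scaling moved the median of all tested genes from 0.03 to 0.19 in PHF19_KD against shEV and from 0.03 to -0.12 in KD_Rescued against PHF19_KD, and the values that changed sign with it moved by about as much: NDUFB5 in the first comparison, from -0.03 to 0.13, the difference for NDUFS4, KD_Rescued vs PHF19_KD, from 0.15 to -0.00275, and the complex II median of that comparison, from 0.07 to -0.085. Set against the median of all tested genes, these values thus stayed about where they were. The complex II median was also -0.0053 at 5 CPM and -0.031 with the library with disagreeing labels as PHF19_KD, and ATP5J2 was -0.020 in KD_Rescued against shEV with that library as KD_Rescued. The cause of these was not tested.

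With 1 library left out at a time, 54 to 67 members were called in PHF19_KD against shEV (52 to 64 lower; median -0.46 to -0.39), 51 to 66 in KD_Rescued against PHF19_KD (45 to 60 higher; median 0.32 to 0.37) and 16 to 46 in KD_Rescued against shEV (12 to 37 lower, 4 to 9 higher; median -0.13 to -0.08). Leaving out a KD_Rescued library leaves 1, which is assumed to vary like the other groups.

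Deviations from the group mean correlated by 0.009, 0.091 and 0.065 between same-numbered PHF19_KD and shEV libraries. Between differently numbered ones the correlations ran from -0.095 to 0.033. The labels do not say whether same-numbered libraries were handled together, and correlations among so few libraries cannot settle it. With the replicate block, 60 members were called in PHF19_KD against shEV (56 lower), 59 in KD_Rescued against PHF19_KD (53 higher) and 32 in KD_Rescued against shEV (25 lower, 7 higher).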

Other observations

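The library with disagreeing labels held 10475 CPM of the members in sum, between the PHF19_KD and KD_Rescued libraries. Its level was within the shEV range for 18 of the 75 tested members, within the PHF19_KD range for 11 and within the KD_Rescued range for 2. These ranges differ in width, and that of KD_Rescued spans only 2 libraries, so the counts give no order of likeness. On the log2 scale the library was nearest to the PHF19_KD mean for 36 members, to the KD_Rescued mean for 24 and to the shEV mean for 15. It lay below all shEV libraries for 50 members and above all of them for 7. The median log2 ratio to the shEV mean was -0.25 over all members, and by complex it ran from -0.22 in complex I to -0.31 in complex V. Of the members, 2 (NDUFB8 among them) were lower there than in all 8 other libraries, and NDUFB5, NDUFC1, UQCRB, COX7C and ATP5E were higher than in all 8. UQCRB stood at 134 CPM, COX7C at 352 CPM and NDUFB8 at 52.7 CPM in it. The ratio of ATP5G2 to ATP5G1 counts was 3.93, between the PHF19_KD libraries and the others.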
